A study of Mus musculus with 8 samples.

Results

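The baseline transcriptome of cultured mouse oligodendrocyte progenitors was described from the 4 control libraries among the 8 RNA-seq libraries of the series. The 4 were chosen by their labels as controls, and no measured value entered the choice. The cells were immunopanned at postnatal day 7 from male and female Ehmt1fl/fl;Ehmt2fl/fl pups, so both floxed alleles were carried by every control culture. They were grown in SATO medium with 10 ng/mL PDGF-AA and 20 ng/mL bFGF, and were infected with Ad-RFP, an adenovirus that expresses only a red fluorescent protein. The multiplicity of infection was 10, the virus was left on for 6 hours, and RNA was taken 72 hours after infection. The controls are therefore virus-treated, proliferating, growth factor-fed cultures, not untouched cells. The labels number the libraries 1, 3, 4 and 6 after their batches, 1 control library to a batch. Nothing in the labels says whether the batches came from separate litters or animals, or whether cells were pooled.

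Oligodendrocyte progenitors are the cells of the central nervous system that divide and, when they stop, mature into the oligodendrocytes that make myelin. They are kept dividing by PDGF-AA acting through its receptor Pdgfra, with bFGF as another mitogen in culture. When the mitogens lose their effect, progenitors pass through a short premyelinating stage marked by Gpr17, Bcas1 and Enpp6, and then switch on the myelin genes. Progenitors also carry ion channels and neurotransmitter receptors, receive synapses from neurons, and coat themselves in chondroitin sulfate proteoglycans such as NG2, the product of Cspg4.

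Levels are given as CPM (counts per 1000000 counts of the library), scaled for library size and composition, and a series of 4 values is always in the order of libraries 1, 3, 4 and 6. Where different genes were compared, the mean CPM was divided by the exon length of the gene in kilobases, and genes were ranked on that scale among 15554 protein-coding genes. Total counts ran from 51298577 to 65374432 per library, so 1 CPM stood for 51.4 to 63.0 counts, and the limit that a count of 0 allows (3 counts) was 0.0476 to 0.0583 CPM. Mitochondrial genes took 2.42% to 3.24% of counts, and a single ribosomal RNA gene, CT010467.1, took 7.91% to 10.1%. At least 1 CPM was reached in all 4 libraries by 13349 of 24155 genes (55.3%), and 2260 genes had a mean of at least 100 CPM. The 55.3% is the share to set beside counts of list members below that reached 1 CPM in every library. With 1 group and 1 library per batch no difference could be tested, so spread is described by the standard deviation (SD) and by the ratio of the highest to the lowest library.

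Most genes were close between the libraries, while a minority differed several-fold. Among the 14221 genes with a mean of at least 1 CPM, the median coefficient of variation was 15.8%, the median highest-to-lowest ratio was 1.42, and 2988 genes (21.0%) had a ratio above 2. These are called variable below. The share depended on level: it was 35.8% at a mean of 1 to 10 CPM, 14.9% at 10 to 100 CPM and 14.5% from 100 CPM up. The 21.0% set beside lists below is not matched to their level. Leaving out a library tends to narrow the highest-to-lowest ratio. Over all genes the number of variable genes fell whichever library was left out. The ratio passed 5 in 545 genes (3.83%). The 6 genes at a count of 0 in a library are counted as past each ratio. The highest value fell in library 1, 3, 4 or 6 for 24.3%, 24.7%, 25.7% and 25.3% of these genes, and the lowest for 27.5%, 27.2%, 15.6% and 29.7%. Libraries 4 and 6 were the closest pair, with a biological coefficient of variation of 0.173, and libraries 1 and 3 came next at 0.219. The other 4 pairs lay between 0.313 and 0.335.

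All 6 progenitor markers were high in every library. Olig1, a basic helix-loop-helix factor of the lineage, had 2009.6, 2239.8, 1271 and 1690.1 CPM and rank 6 of all protein-coding genes per kilobase. Olig2, its neighbour on chromosome 16 and the factor that specifies the lineage, had 886, 1131, 722 and 818 CPM and rank 35. Ptprz1, a receptor phosphatase that is also a chondroitin sulfate proteoglycan, had 3848, 3195, 3498 and 4535 CPM and rank 53. These 3 markers kept one order per kilobase in all 4 libraries and were within a ratio of 1.76. Pdgfra, the PDGF-AA receptor, had 837, 1540, 543 and 874 CPM (mean 949, SD 421, n = 4). Cspg4 had 393, 678, 252 and 307 CPM (mean 408, SD 189.6). Both were highest in library 3 and lowest in library 4, with ratios of 2.84 and 2.69. Sox10, the lineage factor that is kept through myelination, ran the other way, at 251, 384, 636 and 405 CPM, lowest in library 1 and highest in library 4. Pdgfra ranked 264, Sox10 136 and Cspg4 1060 per kilobase, and the order of Sox10 and Pdgfra held in only 2 of the 4 libraries. The summed level of the 6 markers was 8225, 9168, 6921 and 8629.9 CPM, a ratio of 1.32. Of the 6, 3 were variable (21.0% of all genes), and 1 of the 6 without library 3 or without library 4. In mm10 the 6 genes lie at chr16:91269772-91271933 (Olig1), chr16:91225457-91228677 (Olig2), chr6:22875502-23052916 (Ptprz1), chr15:79154908-79165240 (Sox10), chr5:75152292-75198215 (Pdgfra) and chr9:56865033-56899870 (Cspg4).

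**Figure D1:**
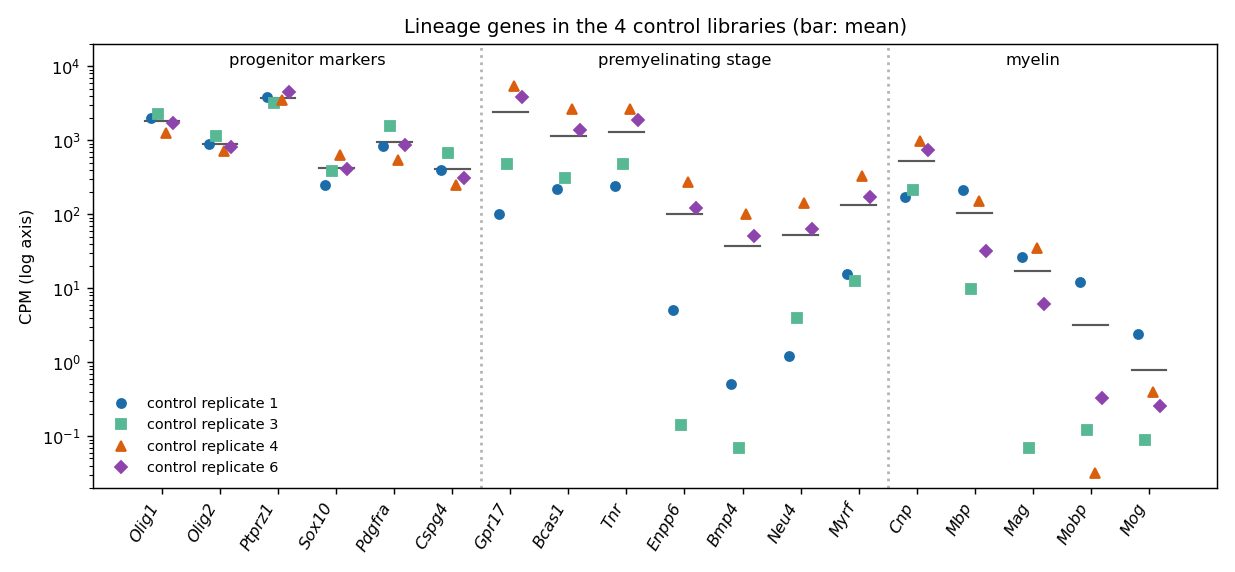
CPM on a log axis for 6 progenitor markers, 7 premyelinating genes and 5 myelin genes, with 1 symbol per control library and a bar at the mean of the 4. The progenitor markers stay within a ratio of 2.84, while Gpr17, Enpp6, Bmp4 and Neu4 sit far higher in libraries 4 and 6, and Mobp and Mog are highest in library 1.

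Other progenitor genes were also abundant. Of 30 further genes known from progenitors, 28 reached 1 CPM in every library and 22 had a mean of at least 100 CPM. Nnat had 364, 428, 328 and 578 CPM, Traf4 393, 487, 469.6 and 456 CPM and Lhfpl3 226, 295, 437 and 409 CPM, and none of the 3 was variable. Serpine2, a secreted protease inhibitor, had 1247, 919, 748 and 859 CPM and was highest in library 1. Xylt1, which starts the sugar chains of proteoglycans, had 710, 774, 341 and 441 CPM, with libraries 1 and 3 above libraries 4 and 6. C1ql1, a secreted C1q-like protein, ran the other way at 8.59, 21.1, 77.3 and 50.02 CPM. In all, 14 of the 29 genes with a mean of at least 1 CPM were variable (21.0% of all genes). Of the 29, 11 were highest in library 4 (25.7% of all genes) and 15 were lowest in library 1 (27.5% of all genes).

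The transcription factors of the lineage were detected almost completely. Of 44 measured, 42 reached 1 CPM in every library (55.3% of all genes). Of the 43 at a mean of at least 1 CPM, 16 were variable (21.0% of all genes). Sox2, a stem and progenitor factor, had 229, 223, 278 and 277 CPM and Zfp24, a factor needed for myelination, had 196, 186, 195 and 197 CPM, among the most even members. Sox8, a close relative of Sox10, had 240.2, 262, 766 and 758 CPM, and Sox6, which holds progenitors back from maturing, had 416, 565, 654 and 727 CPM. Sox11, another SOX factor, had 247, 245, 125 and 124 CPM and was higher in each of libraries 1 and 3 than in either of the other two. The Id genes, whose products block basic helix-loop-helix factors, were on the opposite side. Id1 had 9.99, 6.45, 49.8 and 39.8 CPM, Id3 21.7, 25.2, 144 and 137 CPM and Id4 8.47, 2.98, 48.3 and 52.7 CPM. Hes5, a Notch target, had 16.5, 18.6, 56.8 and 74.7 CPM, so all 4 were higher in libraries 4 and 6. Egr1, an immediate early factor, had 106, 51.5, 15.4 and 24.2 CPM with its maximum in library 1. Myrf and Nkx2-2, which drive maturation, are described with the stages they mark.

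Genes of the premyelinating stage differed widely between the libraries. Of 19 measured, 17 had a mean of at least 1 CPM, 14 of those were variable (21.0% of all genes) and 14 were highest in library 4 (25.7% of all genes). Their summed level was 1694, 2310.4, 13084 and 8476 CPM, a ratio of 7.72. Gpr17, a G protein-coupled receptor of committed progenitors, had 101, 473, 5382 and 3791 CPM and rank 21 per kilobase. Per kilobase it was above Pdgfra in libraries 4 and 6 and below it in libraries 1 and 3. It was among the most abundant messages in libraries 4 and 6 and a modest one in library 1. Bcas1, a marker of cells about to myelinate, had 221, 312, 2657 and 1382 CPM and rank 43. Fyn, a kinase of the maturation pathway, had 547, 664, 1073 and 859.9 CPM and was not variable. Cyfip2, an actin regulator, had 178, 234, 1241 and 744 CPM, and Itpr2, a calcium channel of the endoplasmic reticulum, had 111, 119.5, 607 and 419 CPM. All of these were lower in libraries 1 and 3 than in the others.

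Enpp6, Bmp4 and Neu4 were among the 4 genes with the widest ratios at a mean of at least 10 CPM, the fourth being Mag. Enpp6 is a choline phosphodiesterase of newly forming oligodendrocytes and had 5.07, 0.14, 272 and 122 CPM. Bmp4, a signal that such cells secrete, had 0.505, 0.0701, 99.4 and 50.1 CPM, and Neu4, a sialidase, had 1.22, 3.91, 141 and 63.5 CPM. All 3 were highest in library 4 and next highest in library 6, while in library 3 Enpp6 stood at 8 counts and Bmp4 at 4. The size of the ratio is therefore imprecise for Enpp6 and Bmp4. Nkx2-2 had 76.8, 94.4, 341 and 224 CPM and Tcf7l2, a Wnt pathway factor, 37.4, 35.8, 95.4 and 77.2 CPM, in the same order of libraries at smaller ratios. Gpr17 lies on chromosome 18 within a stretch that Lims2 shares on the opposite strand. Lims2 had 5.91, 20.7, 137 and 93.3 CPM, and without knowledge of strand its reads cannot be told apart from those of Gpr17. In bulk RNA, more cells at a stage and more RNA per cell cannot be told apart, and this holds for every list below.

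Myelin genes were detected for the most part at low levels, and the libraries did not differ in 1 way only. Of 35 measured, 24 had a mean of at least 1 CPM, and 22 of those were variable (21.0% of all genes). The other 11 stayed below a mean of 1 CPM, among them Opalin, Aspa, Mal, Ermn, Hapln2 and Klk6, all genes of mature oligodendrocytes. The summed level was 1576, 1083, 4731 and 2970.5 CPM. The early genes followed the premyelinating order. Cnp, an enzyme made from the start of maturation, had 172, 209.6, 990.2 and 729 CPM, and Sirt2, a deacetylase of the myelin sheath, had 115, 112, 979.8 and 551 CPM. Myrf, the master regulator of myelin genes, had 15.4, 12.3, 329 and 169.5 CPM, Fa2h, which makes hydroxylated myelin lipids, 2.7, 4.09, 98 and 50.8 CPM and Nfasc, an adhesion protein of axon contact, 111, 86.3, 579.6 and 249.8 CPM. In each of these 5 genes, libraries 4 and 6 were above libraries 1 and 3.

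Genes of compact myelin did not keep to that order. Mbp, the protein that compacts the sheath, had 215, 9.84, 153 and 31.7 CPM, highest in library 1 and lowest in library 3. The gene-level values for Mbp do not separate its classic transcripts from the longer Golli transcripts. Mag, an adhesion protein of the inner layer, had 26.2, 0.0701, 35.3 and 6.03 CPM, with 4 counts in library 3 and 1347 in library 1. Mobp, a late myelin protein, had 12.3, 0.123, 0.0317 and 0.331 CPM, 633 counts in library 1 against 7, 2 and 18 in the other three. Mog, on the outer surface of the sheath, had 2.39, 0.0877, 0.397 and 0.257 CPM. Mobp, Mog and Cryab (44.8, 4.12, 5.36 and 13.8 CPM) were thus highest in library 1, and 13 of the 24 members were lowest in library 3 (27.2% of all genes).

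Genes of cell division were detected in all 4 libraries, at levels from low to high, and differed between them almost as 1 block. The lowest S phase gene per kilobase, Dscc1, had 7.93, 8.19, 2.17 and 1.53 CPM. All 42 S phase genes reached 1 CPM in every library and 40 were variable (21.0% of all genes). All 42 were lowest in library 6 (29.7% of all genes). The highest value was in library 1 for 20 of them and in library 3 for the other 22 (24.3% and 24.7% of all genes). Their summed level was 4177, 4158, 1975 and 1138 CPM. Pcna, the sliding clamp of DNA replication, had 246, 252, 118 and 69.6 CPM, and Rrm2, a subunit of ribonucleotide reductase, had 313, 268, 119.7 and 52.2 CPM. Mcm5, part of the replicative helicase, had 193, 206, 70.5 and 30.3 CPM and Ung, a uracil glycosylase, 25.4, 22.8, 9.48 and 3 CPM. Libraries 1 and 3 were nearly equal in each case, library 4 was lower and library 6 lowest.

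All 50 genes of G2 and mitosis also reached 1 CPM in every library. Of them, 46 were variable (21.0% of all genes) and 49 were lowest in library 6 (29.7% of all genes). Their summed level was 10452, 10503, 4955 and 3484 CPM. Mki67, the Ki-67 antigen of dividing cells, had 1752, 1803, 634 and 358 CPM (mean 1137, SD 749) and rank 185 per kilobase. Top2a, which untangles chromosomes, had 928, 916, 419 and 253 CPM, Cdk1, the mitotic kinase, 185, 179.9, 82.6 and 53.9 CPM and Ccnb2, one of its cyclins, 62.7, 65.2, 24.4 and 23.8 CPM. Ctcf and Anp32e were the most even members, at 192, 193, 172 and 169.9 CPM and 433, 411, 303 and 306 CPM. Even the lowest library therefore kept Mki67 at 358 CPM. Without library 6, 29 of the S phase genes and 41 of the G2 and mitosis genes were variable.

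The promoters of Top2a, Ccnb2 and Cdk1 are shown as examples from the mitotic genes. The part of promoter elements in the spread between the libraries was not tested. The sequences are from RefSeq on GRCm38.p6, 250 bases that end just before the start of the gene in RefSeq, 5′ to 3′ on the strand of the gene. Capitals mark the CCAAT box (letters CCAAT, or ATTGG on the opposite strand) and the cell cycle homology region, CHR (letters TTTGAA, or TTCAAA on the opposite strand), 2 short elements known from promoters of mitotic genes.
Top2a, chr11:99024190-99024439, minus strand: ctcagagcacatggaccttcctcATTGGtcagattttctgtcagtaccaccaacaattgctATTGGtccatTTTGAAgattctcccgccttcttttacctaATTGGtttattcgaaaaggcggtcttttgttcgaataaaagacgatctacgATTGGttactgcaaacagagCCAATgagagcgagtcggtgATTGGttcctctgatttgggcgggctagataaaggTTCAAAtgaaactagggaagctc
Ccnb2, chr9:70421555-70421804, minus strand: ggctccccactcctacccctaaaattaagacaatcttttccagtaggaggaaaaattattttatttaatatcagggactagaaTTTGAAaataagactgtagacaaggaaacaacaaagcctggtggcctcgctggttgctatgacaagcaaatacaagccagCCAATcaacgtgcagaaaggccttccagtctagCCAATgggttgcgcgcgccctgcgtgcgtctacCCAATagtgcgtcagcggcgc
Cdk1, chr10:69352913-69353162, minus strand: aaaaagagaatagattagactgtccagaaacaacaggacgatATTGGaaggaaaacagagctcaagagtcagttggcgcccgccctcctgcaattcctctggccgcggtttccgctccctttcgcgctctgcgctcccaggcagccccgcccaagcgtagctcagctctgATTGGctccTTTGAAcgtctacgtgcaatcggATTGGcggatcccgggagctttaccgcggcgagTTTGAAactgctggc
Top2a held 6 CCAAT boxes and 2 CHR letter strings, Ccnb2 held 3 and 1, and Cdk1 held 3 and 2, with none overlapping another. In the deposited table Cdk1 starts 26 bases further upstream, so the last 26 bases shown, with 1 of its 2 CHR strings, lie inside the gene as placed there. A promoter could be matched for 44 of the 50 genes, of which 33 (75%) held CCAAT on either strand and 19 (43.2%) held TTTGAA. The same letters stood in 35.9% and 11.5% of all 13814 matched promoters of this length. Among S phase genes, 21 of 30 matched promoters held CCAAT and 4 of 30 (13.3%) held TTTCGCG, an E2F-type string found in 1.22% of all promoters. In 16 matched promoters of premyelinating genes CCAAT stood in 18.8% and TTTGAA in 6.25%. ACAAT, the core that SOX factors bind, stood in 6 of these 16 (37.5%) against 19.1% of all promoters. It also stood in 8 of 24 myelin promoters (33.3%) and 2 of 4 of the progenitor markers (50%). In G2 and mitosis genes its share was 20.5% and in S phase genes 16.7%. A match is a description of letters, not a bound site.

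Genes that respond to growth factor signalling were arranged like the cell cycle. Of 18 measured, all reached 1 CPM in every library and 12 were variable (21.0% of all genes). The summed level was 3054, 3061, 1365 and 1281 CPM. Ccnd1, the cyclin through which mitogens start the cycle, had 1228, 1242, 220.3 and 165 CPM, a ratio of 7.51. Spry4, an inhibitor that the pathway itself induces, had 191, 214, 53.3 and 47.9 CPM, Dusp6, a phosphatase of ERK, 138, 119, 56.6 and 58.4 CPM and Etv5, an ETS factor, 386, 407, 222 and 196 CPM. Each was highest in library 1 or 3. Spred1 and Etv1 were even, at 185, 181, 194 and 188 CPM and 99.3, 104, 113 and 117 CPM. Inhibitors of the cycle did not all oppose it. Cdkn1a, the p21 protein, had 247, 164, 59.1 and 45.8 CPM, highest in library 1. Cdkn1c, the p57 protein that has been tied to maturation, had 5.66, 4.47, 26.1 and 25.5 CPM, with libraries 4 and 6 high, and Cdkn1b, the p27 protein, was even at 85.4, 91.7, 94.1 and 106 CPM. Of 13 inhibitors 7 were variable (21.0% of all genes), and 3 without library 6.

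**Figure D2:**
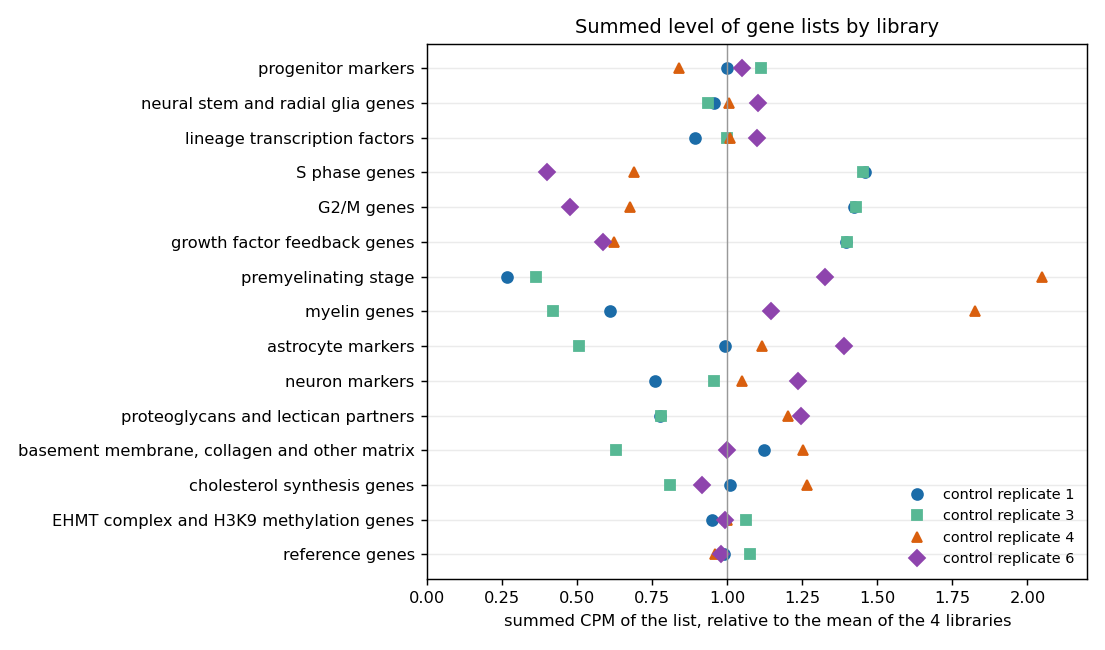
Summed CPM of 15 gene lists in each control library, divided by the mean of the 4 libraries, with 1 symbol per library. Libraries 1 and 3 lie together above 1 for the S phase, G2/M and feedback genes, while libraries 4 and 6 lie above 1 for premyelinating and myelin genes. Library 3 is lowest for astrocyte markers, and reference and EHMT lists stay near 1.

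The cultures were then set against markers of the other cell types that immunopanning could leave behind. Values were at hand for 2 of 6 defining markers of microglia, 2 of 4 of endothelial cells, 3 of 4 of mural cells, 3 of 4 of fibroblasts and 2 of 4 of blood cells, and each of these stayed below 1 CPM in every library. P2ry12, a receptor of microglia, had 0.816, 0.368, 0.19 and 0.386 CPM and Csf1r, their growth factor receptor, 0.0778, 0.0701, 0.127 and 0.0184 CPM. Pecam1, an endothelial adhesion protein, had 0.214, 0.316, 0.381 and 0.294 CPM, and Tie1 had 4, 0, 0 and 1 counts. Col1a1, the fibroblast collagen, had 0.661, 0.193, 0.429 and 0.404 CPM, Rgs5, a pericyte gene, 0.622, 0.0701, 0.159 and 0.0919 CPM and Hba-a1, a haemoglobin chain, at most 3 counts. The summed level of the fibroblast list was 1.54 to 6.32 CPM and that of the blood list 0.254 to 0.544 CPM. Of the 22 microglia markers 14 were not analysed here, among them the defining Cx3cr1, Tmem119, Aif1 and C1qa, and of endothelial markers Cldn5 and Cdh5 were not.

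Neuron markers were mixed. Slc17a7 and Gad2, which mark glutamatergic and GABAergic neurons, stayed below 0.3 CPM in every library, and Rbfox3, the NeuN protein, had 1.46, 1.77, 1.36 and 1.53 CPM. Several genes named for neurons were abundant in all libraries: Map2, a microtubule protein, had 734, 923, 936 and 1215 CPM, Dcx, another, 84.5, 129, 244 and 198 CPM and Syn1, a synaptic vesicle protein, 37.7, 56.5, 54.6 and 59.8 CPM. The summed level of the 23 measured neuron markers was 1053, 1328, 1458 and 1718 CPM. Ependymal Foxj1 had 34.7, 11, 17.9 and 27.6 CPM, but Ccdc153, a cilium gene, stayed below 0.5 CPM. Pou3f1, a factor of Schwann cells, had 120.2, 144, 33.4 and 23.9 CPM, higher in libraries 1 and 3 than in the other two.

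Astrocyte markers were present at substantial levels. Of 20 measured, 16 had a mean of at least 1 CPM and all 16 were variable (21.0% of all genes). Of the 16, 15 were lowest in library 3 (27.2% of all genes). Without library 3, 10 were variable. The summed level was 2835, 1444, 3180.5 and 3962 CPM. Slc1a3, a glutamate transporter that progenitors also express, made up the largest part at 1179, 537, 1364 and 1401 CPM. Aldh1l1, a folate enzyme used to mark astrocytes, had 139, 31.6, 171 and 226 CPM and Aqp4, the water channel of their endfeet, 39.2, 2.09, 48.9 and 97.1 CPM. Gja1, the connexin of astrocytes, had 88.5, 11.1, 25.2 and 41.9 CPM, Gfap, their filament protein, 1.19, 0.228, 1.79 and 9.23 CPM and Gjb6, another connexin, at most 6 counts. Library 3 was lowest in each of these, and library 6 was highest in Aldh1l1, Aqp4 and Gfap. Apoe, a lipid carrier made by astrocytes and other glia, had 306, 23.6, 143 and 673 CPM in the same direction. Library 3 was also the lowest in Mbp and Mag, while library 1, the lowest in Gpr17, was the lowest for none of the 16. The part of astrocyte cells in any result was not tested.

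**Figure D3:**
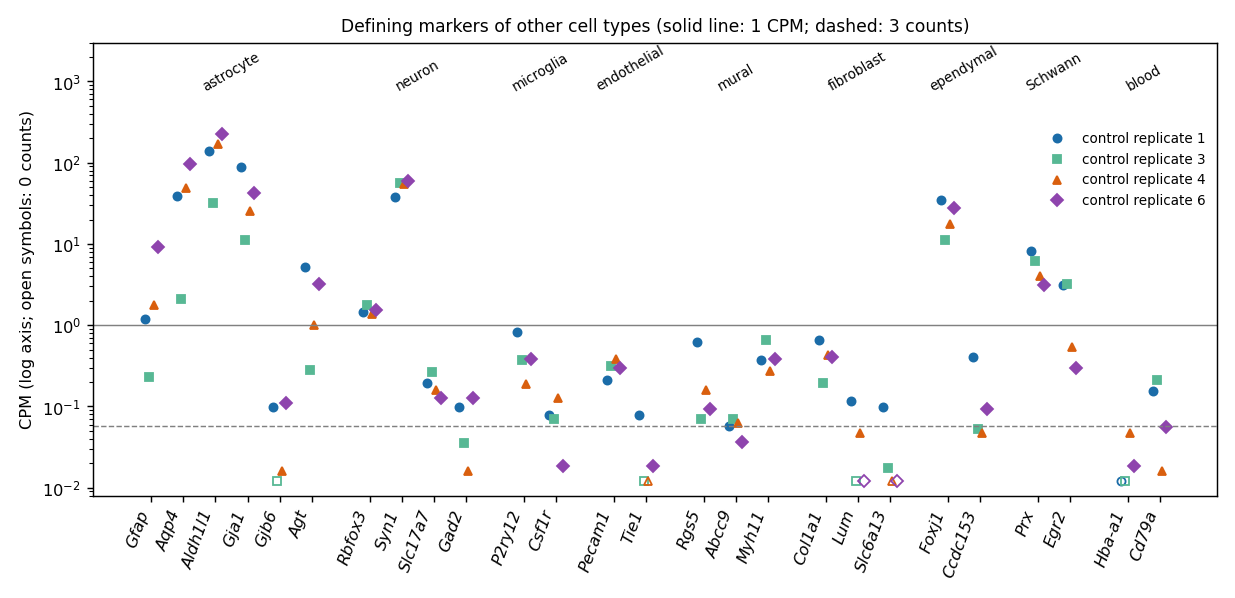
CPM on a log axis for measured defining markers of 9 other cell types, with 1 symbol per control library, open symbols for 0 counts, a solid line at 1 CPM and a dashed line at 3 counts in library 1. Microglia, endothelial, mural, fibroblast and blood markers lie below the solid line, while 5 of 6 astrocyte markers reach it in at least 1 library.

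Genes of neural stem cells and radial glia were among the highest in the cultures. Fabp7, a fatty acid binding protein of glial precursors, had 2170.5, 2007, 3040.5 and 3774 CPM and rank 2 per kilobase, after Eef1a1. Vim, an intermediate filament, had 1742, 1933, 749 and 897 CPM and Nes, nestin, 1035, 1351, 602 and 689.5 CPM, with libraries 1 and 3 above libraries 4 and 6. All 14 measured genes of this list reached 1 CPM in every library, and its sum was 7044, 6886, 7417 and 8130.1 CPM. Other messages near the top of the ranking were Tuba1a, a tubulin (2275, 2319, 4237 and 2843 CPM), Actb (2826, 3016, 2227 and 1994 CPM), Scd2, a fatty acid desaturase of myelinating glia (4979, 3343, 6002 and 6143 CPM), and Ckb, brain creatine kinase (2848, 2172, 2161 and 2296 CPM). Rpl10-ps3 and Rps27rt also stood among the top 20, but both are near copies of ribosomal protein genes and may hold reads of their parents.

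Receptors for growth factors were led by Pdgfra at 94.6 CPM per kilobase (SD 42, n = 4) in the mean of the libraries. Next per kilobase came Thra, a thyroid hormone receptor, with 151, 159, 365 and 339 CPM, Bmpr1a, a BMP receptor, with 199, 169, 292 and 242 CPM, and Fgfrl1. Pdgfra was above Thra in 3 of 4 libraries and below it in library 4. The order of Thra above Bmpr1a held in all 4 libraries, and that of Bmpr1a above Fgfrl1 in 2. Ntrk2, the TrkB receptor, had 582, 387, 434 and 722 CPM and Notch1 365, 332, 316 and 402 CPM. Of the bFGF receptors, Fgfr1 had 185, 165, 129.5 and 145 CPM, Fgfr2 44.9, 10.9, 65.7 and 56.6 CPM and Fgfr3 58.5, 23.8, 79.2 and 139 CPM. Fgfr1 was even, whereas Fgfr2 and Fgfr3 were lowest in library 3. That library was lowest for 18 of the 34 receptors at a mean of at least 1 CPM (27.2% of all genes). Egfr had 300.4, 192, 98.1 and 210.2 CPM, highest in library 1. Erbb4 had 43, 59.9, 109 and 152 CPM and Erbb3 5.7, 9.85, 6.71 and 7.37 CPM, both neuregulin receptors, and Pdgfrb, the receptor of mural cells, had a mean of 0.245 CPM. Of the 34 receptors 15 were variable (21.0% of all genes), and 9 without library 3.

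In the potassium channel list and the sodium and calcium channel list, the highest gene per kilobase was a potassium channel. Cacng4, by name a calcium channel gamma subunit, is in the list of AMPA receptor partners and had 93.9 CPM per kilobase. Of 59 potassium channel genes measured, 38 had a mean of at least 1 CPM and 29 reached it in every library. Kcnj10, the inward rectifier Kir4.1 that sets the resting potential of glia, had 449, 266, 479 and 581 CPM and rank 326, at 82 CPM per kilobase. It was the highest gene of both channel lists in all 4 libraries. Per kilobase, Cacng4 was above Kcnj10 in libraries 1 and 3 and below it in libraries 4 and 6. The next 4 potassium channels could not be ordered beyond their spread: Kcnd2 had 21.4, Kcna6 21.4, Kcnd3 20.9 and Kcnj16 20.9 CPM per kilobase. Kcnd3, an A-type channel, had 246, 275, 131 and 149 CPM, with libraries 1 and 3 above the other two. Kcnj3, a G protein-gated rectifier, ran against it at 0.428, 0.281, 10.2 and 3.82 CPM, and so did Kcnq3, an M-current subunit, at 4.24, 5.24, 25.7 and 14.3 CPM. Kcnn3, a calcium-activated channel, had 12.6, 3.84, 14.8 and 26.5 CPM, lowest in library 3. In all, 25 of the 38 were variable (21.0% of all genes), and 14 without library 1.

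Sodium and calcium channel genes lay lower. Of 30 measured, 24 had a mean of at least 1 CPM and the summed level of the list was 369, 414, 489.6 and 461 CPM. Cacnb3, a calcium channel beta subunit, was highest per kilobase at 9.39 CPM per kilobase, far below Kcnj10 and in every library above Scn3b, a sodium channel beta subunit. Cacna1h, a low-voltage calcium channel, had 41.1, 36.8, 38.3 and 40.2 CPM and Cacna1a, the P/Q-type channel, 40.7, 40.7, 35.2 and 36.1 CPM, and both were even. Scn8a, the Nav1.6 sodium channel, had 33.7, 45.4, 58.2 and 58.4 CPM, Scn2a 11.3, 14.9, 16.6 and 13.9 CPM and Nalcn, a sodium leak channel, 18.8, 28, 72.5 and 61.6 CPM. Nalcn was lower in libraries 1 and 3 than in libraries 4 and 6. Variable members numbered 11 of 24 (21.0% of all genes), and 4 without library 1.

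Glutamate receptors were prominent among the neurotransmitter receptors. Of 18 ionotropic subunits, 14 reached 1 CPM in every library. The kainate subunits Grik3, at 161, 264, 325 and 248 CPM, and Grik5, at 99.5, 114, 164 and 161 CPM, were highest per kilobase, in an order that held in 2 of 4 libraries. The AMPA subunit Gria2, which blocks calcium entry, had 219, 244, 309 and 253 CPM, Gria4 99.4, 105, 128 and 84.2 CPM and Gria3 153, 156, 107 and 92.4 CPM, while Gria1 had only 10.7, 1.09, 7.54 and 7.15 CPM. The NMDA subunit Grin3a had 138, 165, 290.4 and 231 CPM against 6.9, 9.15, 16.6 and 12.9 CPM for the obligatory Grin1 and 1.57, 1.12, 1.16 and 1.38 CPM for Grin2a. Of the 16 subunits at a mean of at least 1 CPM, 10 were highest in library 4 (25.7% of all genes). Variable subunits numbered 9 of the 16 (21.0% of all genes), 5 without library 1 and 4 without library 4. Among AMPA receptor partners, Cacng4 had 302, 406, 306 and 328 CPM and rank 268, and Cacng7 112, 139.7, 167 and 150.1 CPM, both even. Shisa9, another partner, had 9.56, 2.03, 50.2 and 52.3 CPM, and Shisa6 83.9, 78, 33.1 and 23.8 CPM, in opposite orders of the libraries. Grm5, a metabotropic receptor, had 281, 207, 222 and 241 CPM and was even.

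Receptors for other transmitters were fewer. Of 25 measured genes for GABA-A, glycine and nicotinic subunits, 13 had a mean of at least 1 CPM, and their summed level was 406, 351, 351 and 358 CPM. Chrna4, a nicotinic subunit, had 171, 144, 84.8 and 120.3 CPM, lowest in library 4. Glrb, of the glycine receptor, had 32.7, 35.3, 57.8 and 45 CPM and Gabrg1, a GABA-A subunit, 63.6, 52.1, 48.2 and 49.8 CPM. Gabrb1 had 21, 1.84, 8.95 and 8.86 CPM, lowest in library 3. Variable members numbered 6 of 13 (21.0% of all genes), and 3 without library 3. Of the G protein-coupled receptors beside Gpr17, Ednrb, the endothelin B receptor, had 732, 332, 612 and 1031 CPM and rank 110. Adgrg1, the adhesion receptor GPR56 of dividing progenitors, had 459.8, 393, 272 and 418 CPM and F2r, a thrombin receptor, 148, 101, 125 and 158 CPM. Per kilobase, Ednrb was above Adgrg1, and Adgrg1 above F2r, in every library. The muscarinic receptors Chrm1, at 20.9, 26.5, 6.24 and 7.21 CPM, and Chrm3, at 12.1, 14, 2.27 and 1.49 CPM, were higher in libraries 1 and 3, and Gpr37l1 was higher in libraries 4 and 6, at 31.7, 30.9, 176 and 98.2 CPM. Of 67 receptors of this class measured, 47 had a mean of at least 1 CPM. Of these, 28 were variable (21.0% of all genes) and 20 were lowest in library 3 (27.2% of all genes).

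The matrix of the cultures was dominated by brain proteoglycans. The 33 measured proteoglycans and partners summed to 8869, 8886, 13709 and 14201 CPM. Ncan, the lectican neurocan, had 1388, 1242, 3398 and 3649.8 CPM and rank 39, and its order against Ptprz1 held in 2 of 4 libraries. Sdc3, a syndecan, had 924, 990.4, 699 and 982 CPM, Bcan, brevican, 392, 433, 752 and 710 CPM and Vcan, versican, 305, 332, 416 and 389 CPM. Tnr, tenascin-R, which binds the lecticans, had 242, 481, 2613 and 1899 CPM and Tnc, tenascin-C, 169, 381, 936 and 424 CPM. Ncan, Bcan and Tnr were higher in libraries 4 and 6 than in libraries 1 and 3, while Sdc3 was lowest in library 4. Acan, aggrecan, had 2.06, 2.65, 7.3 and 3.58 CPM and the link protein gene Hapln1 a mean of 0.0427 CPM. Of 28 members with a mean of at least 1 CPM, 15 were variable (21.0% of all genes), and 9 without library 3.

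Collagens and basement membrane genes were for the most part low. Of 63 measured, 36 reached 1 CPM in every library, and their sum was 1749, 981, 1955 and 1558 CPM. Sparcl1, a secreted glial glycoprotein, had 292, 66.8, 519 and 306 CPM and its relative Sparc 325, 112, 283 and 323 CPM, both lowest in library 3. Lamc1, a laminin chain, had 217, 166, 210.3 and 168 CPM and was even. Col11a1, a fibrillar collagen, had 82.5, 84.6, 340.3 and 217 CPM and Col9a1, a collagen that joins fibrils, 1.46, 4.89, 47.7 and 25.6 CPM, both higher in libraries 4 and 6. Col18a1, a basement membrane collagen, had 23, 3.52, 1.73 and 2.37 CPM, highest in library 1. The collagens of connective tissue, Col1a1, Col1a2 and Col3a1, had means below 1 CPM. Of the 44 members with a mean of at least 1 CPM, 24 were highest in library 1 (24.3% of all genes) and 21 lowest in library 3 (27.2%), the library that was also lowest for 15 of 16 astrocyte markers. The part of astrocytes in these values was not tested. Variable members numbered 32 of the 44 (21.0% of all genes), and 21 without library 3.

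Receptors that anchor cells to this matrix were present at high levels. Itgb1, the common integrin beta chain, had 619, 534, 544 and 511 CPM and rank 139, and Dag1, dystroglycan, 537, 391, 462 and 469 CPM, both even. Itga6, a laminin receptor chain of the lineage, had 131, 98.5, 266 and 239.6 CPM, with libraries 4 and 6 high. Itga8, which pairs with Itgb1, had 113, 95.3, 6.49 and 5.99 CPM, a ratio of 18.8 in the opposite direction. Itgav, the alpha V chain, had 323, 239, 226 and 227 CPM, highest in library 1. Of 50 adhesion and guidance genes, 48 reached 1 CPM in every library and 21 were variable (21.0% of all genes). Cntn1, contactin-1, had 903, 1267, 810.1 and 962 CPM, Nlgn3, a neuroligin of progenitors, 308, 418, 429 and 445 CPM and Ncam1 270.2, 298, 684 and 488 CPM. Plxnb3, a semaphorin receptor, had 32.9, 52.9, 341 and 197 CPM, the widest ratio of this list.

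Cholesterol synthesis was high and comparatively even. All 25 genes reached 1 CPM in every library, and 2 of 25 (8%) were variable, against 21.0% of all genes. Among all genes the share was 14.9% at a mean of 10 to 100 CPM and 14.5% from 100 CPM up. None of the 25 was variable without library 3 or without library 4. Hmgcs1, an early enzyme of the pathway, had 1135, 854, 1590.2 and 1251 CPM and Srebf2, its transcription factor, 422, 414, 481 and 397 CPM. Library 4 was highest for 22 of the 25 (25.7% of all genes) and library 3 lowest for 15 (27.2% of all genes). The spread was thus small but ordered. Genes of the EHMT complex and of histone H3 lysine 9 methylation had the smallest share of variable members among the lists with at least 10 expressed genes, 1 of 19, and 0 of 19 without library 6. Both floxed methyltransferase genes were even. Ehmt1 had 88, 97.2, 93.2 and 97.1 CPM and Ehmt2, whose product pairs with it, 153, 173, 196 and 176 CPM. Cbx5, the heterochromatin protein HP1 alpha, had 825, 930.3, 722 and 721 CPM. Suv39h2, another methyltransferase, was the variable member, at 21.4, 22.4, 11.5 and 9.39 CPM.

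**Figure D4:**
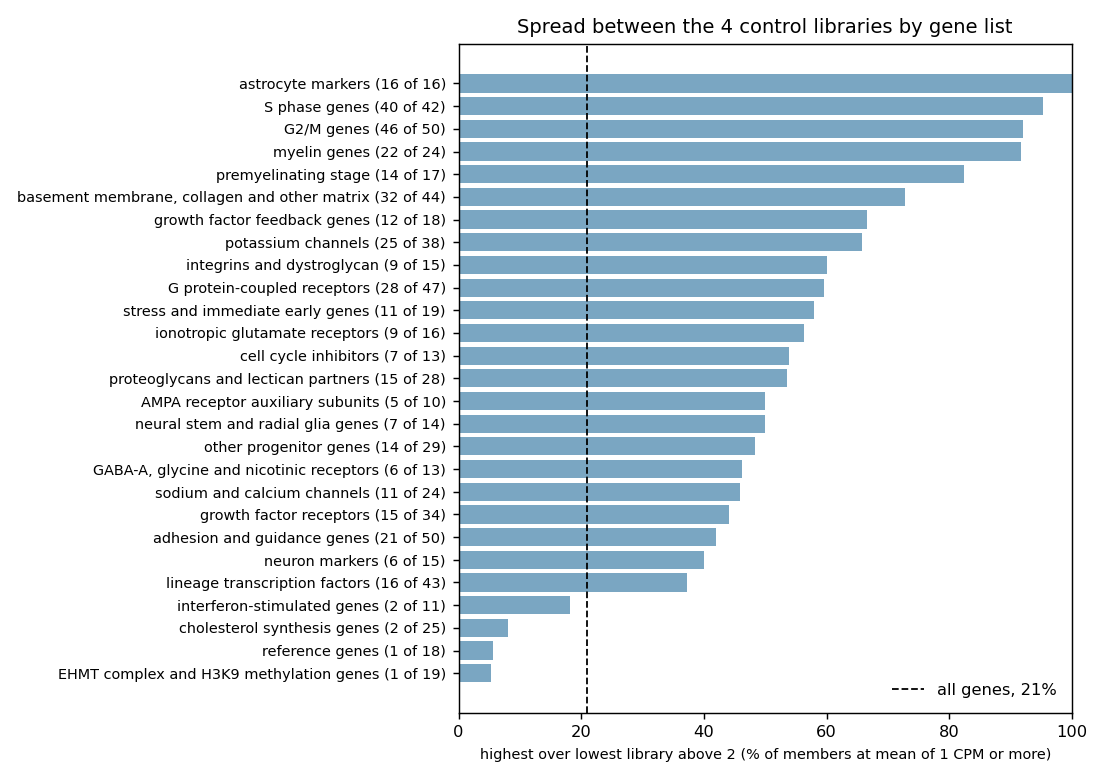
Share of each list's members, among those with a mean of at least 1 CPM, whose highest library was more than 2 times the lowest, for lists with at least 10 such members. The dashed line is the 21.0% of all genes, astrocyte markers, cell cycle and myelin genes lie far above it, and cholesterol, reference and EHMT genes lie below it. The line is not matched to the level of each list.

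Genes often used as references were mostly stable. Of 18, only Hprt was variable, at 17.5, 20.1, 7.6 and 6.29 CPM. Gusb had 26.5, 25, 26.1 and 27.5 CPM and Ipo8 116, 120.1, 109.8 and 114 CPM, whereas Actb had a ratio of 1.51 and Gapdh, at 203, 167, 137 and 119 CPM, of 1.7. The most even named genes at a mean of at least 10 CPM, picked after their values were seen, were Pik3ca at 95.7, 96.3, 96 and 96.8 CPM, Exoc8 at 46.7, 47.2, 46.8 and 46.7 CPM and Mob1a at 75.9, 75.3, 76 and 76.6 CPM. Xist, expressed from the inactive X chromosome, had 312, 518, 527 and 434 CPM, and the Y-linked Ddx3y had 21.9, 14.3, 15.4 and 13.2 CPM, Eif2s3y 28.7, 17.8, 24.6 and 24.4 CPM and Kdm5d 24.4, 24.7, 24.4 and 31.1 CPM. Xist and Y-linked transcripts were thus present together in all 4 libraries, and no sex-linked gene was variable. Interferon-stimulated genes, which viruses can induce, summed to 147, 131, 129.8 and 131 CPM over 28 measured genes, of which 17 had a mean below 1 CPM. Isg15 had a mean of 0.088 CPM and Ifit2, the highest, had 54.4, 41.4, 31.1 and 38.1 CPM.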

How the data were processed

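mRNA of the 4 control libraries was measured by oligo-dT RNA-seq. Per the submitters' processing notes, the authors used Partek, cutadapt, STAR and DESeq2 with mm10. Not given in the sources used here were versions, annotation, the counting step and strand. The authors deposited estimated counts, without normalization, of which 51.2% to 52.7% per library are not whole. Only the 4 control columns were used. Counts were rounded, scaled by TMM over these 4 libraries (edgeR 4.0.16, R 4.3.3) and given as CPM. Dispersions used edgeR with an intercept alone and filterByExpr at a minimum count of 10. Exon lengths came from GENCODE M21 for 23459 of 24155 genes. Overlapping and antisense genes cannot be told apart without strand. No 2 libraries were duplicates: the chi-square per degree of freedom between pairs was 56.5 to 228.6. The scripts for scaling and spread were tested on simulated data.

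Genes were named by rule: the 6 markers, in each list the 4 highest per kilobase and the 3 with the widest ratio, defining markers, and the 20 highest and 20 most variable genes. A few of these are not reported here. Other list members were named after their values were seen. The lists were chosen with earlier results of these data known. Counts limit precision near 1 CPM and more so below it, where a ratio of libraries can rest on few counts. The 3-count limit covers counting error only. Other scalings, lengths, thresholds and each library left out were tried as alternatives. Of 924 listed genes 58 were not analysed here.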

Additional observations from a re-analysis of the deposited data

Results flagged for a closer look

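In 236 quantities examined (196 genes named in the text, 36 list sums and 4 library totals or shares), 14 (5.93%) had 1 control library far from the other three by Dixon's criterion for 4 samples (gap to the nearest library over the whole range, 95% critical value). Chance gives about 5% in quantities taken without choice, but many of these genes were named for their wide ratios or after their values were seen, so that rate is no yardstick here. In library 1 the high values were Mobp at 12.3 CPM, Mog at 2.39 CPM, Ermn at 1.63 CPM, Hapln2 at 0.855 CPM and Klk6 at 0.583 CPM, all genes of mature oligodendrocytes. Also high in library 1 were Col18a1 at 22.99 CPM, Itgav at 323.5 CPM, Rgs5 at 0.622 CPM and Ccdc153 at 0.408 CPM. The sum of GABA-A, glycine and nicotinic receptor genes was high there at 406.2 CPM and that of interferon-stimulated genes at 147.5 CPM. In library 6 the sum of growth factor receptors was high at 5526 CPM and Kdm5d at 31.1 CPM. Zfp24 was low in library 3 at 186.1 CPM. No test of these differences was possible with 1 library per batch.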

How the results depend on the processing

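Of 1916 alternative values, 1856 stayed within 1 SD of the reported value or, for counts and ranks, within 1.5 times. RLE, upper-quartile or plain total scaling moved none of 241 results beyond that. Taking ribosomal RNA and mitochondrial genes out of the library size raised every level and moved 31 of 196 gene means. The number of variable genes was 6130 at a ratio above 1.5 and 1401 above 3, and 1905 or 1483 where the mean had to reach 5 or 10 CPM. It was 2288 to 2499 with 1 library left out. The median coefficient of variation was 26.99% with no filter. Without members that another list holds, the mean summed CPM of proteoglycans and lectican partners was 3013.9 and the mean summed CPM of astrocyte markers 1349.4, and no such value exists for the progenitor markers, all of which are in other lists. Ranks depended on the length used. Per coding length Ptprz1 ranked 142, Sox10 349 and Cspg4 2638, and with no length Ptprz1 ranked 3, Olig1 13, Pdgfra 42, Sox10 221 and Cspg4 230. Counts of variable members without each library were added after the data were seen. No paired analysis was possible because a single group was used and no result came from a test. Only 4 libraries, each its own batch, limit every statement on spread.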

Other observations

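Among the 20 genes with the widest ratios, several belong to no list. Tmem88b had 5.87, 1.67, 83.2 and 33.5 CPM, Parvb, an actin-linked adhesion protein, 11.3, 4.56, 148 and 56.8 CPM and Lgi3, a secreted protein of the leucine-rich glioma inactivated family, 4.47, 2.23, 53.6 and 22.7 CPM. Rasgef1b had 2.43, 1.39, 37.3 and 20.3 CPM and Gp1bb, which overlaps Septin5 on the same strand, 3.03, 1.96, 41.5 and 17.4 CPM. All 5 were highest in library 4 and next highest in library 6, the order of Enpp6 and Bmp4.

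The 24 stress and immediate early genes summed to 2028, 1758, 1647 and 1556 CPM. Of the 19 with a mean of at least 1 CPM, 11 were variable (57.9%, against 21.0% of all genes). Hspa5, the chaperone of the endoplasmic reticulum, had 519, 482, 591 and 599 CPM and Atf4, the factor of the integrated stress response, 158, 144, 148 and 121 CPM. Hmox1, an enzyme induced by oxidative stress, had 49.1, 33.1, 29.1 and 20.1 CPM, highest in library 1. Arc, an immediate early gene, had 9.27, 9.54, 1.65 and 0.735 CPM, higher in libraries 1 and 3 than in libraries 4 and 6.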
